A study of Mus musculus with 18 samples.

Results

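Of 55487 genes counted, 10 macrophage genes were followed in adipose tissue that had lost CSN8, a subunit of the COP9 signalosome, in adipocytes. They were taken by name, 5 as genes of macrophages in general (Adgre1, Cd68, Csf1r, Mpeg1 and Fcgr1, called core here) and 5 as genes of macrophages that settle in tissues (Cd163, Mrc1, Lyve1, Folr2 and Cd209f, called resident here). Csn8AKO mice carried floxed Csn8 and Cre driven by the adiponectin promoter, which is used for its activity in adipocytes. Ctrl mice, labelled WT, were littermates with floxed Csn8 and no Cre. Subcutaneous white adipose tissue (sWAT) was sequenced from 4 Ctrl and 4 Csn8AKO mice at 12 weeks of age, and brown adipose tissue (BAT) from 5 Ctrl and 5 Csn8AKO mice at 4 weeks. All 18 mice were male, on chow and fasted for 4 h, and each is taken to have given 1 library of whole tissue. In whole tissue, more cells of a type and more RNA per cell cannot be told apart.

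Macrophages engulf dead cells, lipid and debris. Some of those in fat settle there and lie along vessels and between adipocytes, where they clear haemoglobin, glycoproteins and matrix fragments, while others come from blood monocytes and gather around dying adipocytes. Genes such as Adgre1 and Cd68 are used by both kinds, whereas scavenger receptors such as CD163 and LYVE1 mark the settled cells.

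Among the core genes, Adgre1 (ENSMUSG00000004730, chromosome 17, 57358691 to 57483527, plus strand, GRCm38) encodes the adhesion receptor that the F4/80 antibody binds. Cd68 (ENSMUSG00000018774, chromosome 11, 69664213 to 69666153, minus strand) encodes a lysosomal glycoprotein. Csf1r (ENSMUSG00000024621, chromosome 18, 61100598 to 61132149, plus strand) encodes the receptor for CSF1 and IL-34, on which most macrophages depend. Mpeg1 (ENSMUSG00000046805, chromosome 19, 12460779 to 12465283, plus strand) encodes perforin-2, which forms pores in engulfed bacteria. Fcgr1 (ENSMUSG00000015947, chromosome 3, 96282909 to 96293969, minus strand) encodes the high-affinity receptor for IgG.

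Among the resident genes, Cd163 (ENSMUSG00000008845, chromosome 6, 124304656 to 124330527, plus strand) encodes the receptor for haptoglobin with bound haemoglobin. Mrc1 (ENSMUSG00000026712, chromosome 2, 14229392 to 14332057, plus strand) encodes the mannose receptor. Lyve1 (ENSMUSG00000030787, chromosome 7, 110850607 to 110863239, minus strand) encodes a hyaluronan receptor that lymphatic endothelium also makes. Folr2 (ENSMUSG00000032725, chromosome 7, 101839988 to 101857194, minus strand) encodes folate receptor beta. Cd209f (ENSMUSG00000051906, chromosome 8, 4102787 to 4105835, minus strand) encodes a C-type lectin in a cluster of 7 Cd209 genes, so that reads on stretches the copies share are uncertain.

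The promoters of 3 members are shown because these genes had the largest change of the 10 in both tissues (Mpeg1), were the only resident gene called in both (Mrc1) or had the smallest difference in both (Cd163). Each sequence is the 250 bases before the RefSeq transcription start in GRCm38.p6, read 5′ to 3′ on the strand of the gene. Capitals mark the purine-rich box GAGGAA, or TTCCTC on the other strand, bound by PU.1, the transcription factor that macrophages need to develop.
Mpeg1, chr19:12460520-12460769, plus strand: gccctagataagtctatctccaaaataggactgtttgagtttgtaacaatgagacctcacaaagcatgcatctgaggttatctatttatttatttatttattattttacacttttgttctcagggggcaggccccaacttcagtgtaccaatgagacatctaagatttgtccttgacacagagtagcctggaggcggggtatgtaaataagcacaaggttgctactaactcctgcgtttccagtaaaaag
Cd163, chr6:124304401-124304650, plus strand: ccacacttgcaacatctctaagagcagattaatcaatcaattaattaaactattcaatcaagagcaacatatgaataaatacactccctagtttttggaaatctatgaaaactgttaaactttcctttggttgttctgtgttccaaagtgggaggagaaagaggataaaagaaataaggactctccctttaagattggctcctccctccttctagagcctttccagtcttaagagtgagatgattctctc
Mrc1, chr2:14229164-14229413, plus strand: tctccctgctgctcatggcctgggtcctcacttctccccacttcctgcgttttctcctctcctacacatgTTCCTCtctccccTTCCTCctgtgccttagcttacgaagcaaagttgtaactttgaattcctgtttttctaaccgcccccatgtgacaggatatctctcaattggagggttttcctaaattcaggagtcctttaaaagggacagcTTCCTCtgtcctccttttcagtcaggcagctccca
The box occurred in 23.3% of 32851 RefSeq promoter windows of the same length. Promoters of 7 of the 10 members were at hand, and 3 of the 7 held it. In Mrc1 it occurred 3 times, beginning 180, 167 and 35 bases before the start, and in Cd68 and Fcgr1 once each. The windows of Mpeg1, Cd163, Folr2 and Cd209f did not contain these letters, which says nothing about binding elsewhere.

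Libraries held 15835721 to 23109603 counted reads in sWAT and 26658593 to 66719937 in BAT. Cops8, the gene for CSN8, was measured over its whole length, exons outside the deletion and cells other than adipocytes included. Its log2 fold change, Csn8AKO over Ctrl, was -0.12 in sWAT (adjusted p = 0.623) and -0.30 in BAT (adjusted p = 0.0211). Adipoq, the adipocyte marker, averaged 1410 CPM in sWAT Ctrl and 644 CPM in BAT Ctrl, and Ucp1, the uncoupling protein of brown fat, 2.03 and 2778 CPM. Some libraries stood apart before any genotype was compared. In sWAT, Ctrl replicate 1 and Csn8AKO replicate 2 held lymphocyte RNA, with 8 T cell genes summing to 265 and 348 CPM against 6.85 to 33.3 CPM in the other 6. Csn8AKO replicates 3 and 4 of sWAT had 31.8% and 47.8% of their reads on ribosomal RNA genes, against 1.80% to 19.8% in the rest. Skeletal muscle RNA was present in all sWAT libraries, where 6 muscle genes summed to 2712 CPM in Ctrl replicate 3, 1626 CPM in Csn8AKO replicate 4 and 45.8 to 521 CPM in the other 6. In BAT, Csn8AKO replicates 1 and 5 held it, with sums of 114 and 200 CPM against 1.34 to 2.44 CPM in the other 8.

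In sWAT, the core macrophage genes were higher in Csn8AKO mice. Of the 5, 4 rose at an adjusted p under 0.05 (edgeR quasi-likelihood test), where 2.3% of 18843 genes tested rose, and 3 of them also passed a log2 fold change of 1, where 1.41% of genes did. The exception was Csf1r. In either direction 5.31% of genes passed, and 3.01% were lower. The median log2 fold change of the core genes was 1.31, against 0.03 for all genes tested.

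Mpeg1, the pore-forming protein of phagocytes, changed most. Its level as CPM, which here means a count scaled to the library total after TMM normalization, was 65.0, 34.7, 47.5 and 33.4 in Ctrl replicates 1 to 4 and 161, 176, 192 and 112 in the Csn8AKO replicates. The Csn8AKO libraries all lay above the Ctrl libraries, and the lowest of them was replicate 4. Ctrl replicate 1, the highest of its group, and Csn8AKO replicate 2, above replicates 1 and 4 of its group, were the libraries with lymphocyte RNA. The part of lymphocyte RNA in the Mpeg1 values was not tested. The log2 fold change was 1.83 ± 0.25 (SE, adjusted p = 0.00398). Cd68 stood at 34.1, 38.5, 39.1 and 43.2 CPM in Ctrl mice and at 86.8, 71.4, 154 and 76.7 CPM in Csn8AKO mice. The 2 groups did not overlap, and Csn8AKO replicate 3 was far above the other 3 of its group. On the log2 scale Cd68 was 1.33 ± 0.23 higher (adjusted p = 0.0127). Adgre1 rose from 35.3 ± 3.33 CPM to 87.5 ± 12.8 CPM (SD, n = 4 each), which was 1.31 ± 0.14 on the log2 scale (adjusted p = 0.0018). All 4 Csn8AKO libraries of Adgre1 lay above the Ctrl libraries.

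Fcgr1, the high-affinity IgG receptor, was the least abundant core gene in sWAT, with 6.60 ± 0.68 CPM in Ctrl and 11.8 ± 2.82 CPM in Csn8AKO mice. Its groups did not overlap, and its log2 fold change of 0.84 ± 0.20 just passed the test (adjusted p = 0.0397). Without any 1 of Ctrl replicates 1 to 4 or of Csn8AKO replicates 1 and 3, the adjusted p of Fcgr1 was between 0.0755 and 0.126. Csf1r stood at 204, 228, 247 and 277 CPM in Ctrl mice and at 389, 231, 481 and 357 CPM in Csn8AKO mice. Csn8AKO replicate 2, one of the libraries with lymphocyte RNA, lay inside the Ctrl range and the other 3 lay above it. The log2 fold change of Csf1r was 0.61 ± 0.22 (adjusted p = 0.147), and it became 0.78 (adjusted p = 0.0171) without that library. The last bases of Csf1r overlap the opposite-strand gene Hmgxb3, and the use of strand in counting is not given in the sources used here.

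Of the 5 resident genes of sWAT, only Mrc1 passed the test, and it did so with a log2 fold change under 1. All 5 had a log2 fold change above 0, with a median of 0.78. Those of Folr2, Mrc1, Lyve1 and Cd209f were larger than that of the core gene Csf1r. At an unadjusted p under 0.05 there were 3 resident genes, where 9.88% of all genes were higher, and by DESeq2 and by voom 1 each, where 5.1% and 5.72% were. Mrc1, the mannose receptor, stood at 179, 212, 255 and 267 CPM in Ctrl mice and at 515, 309, 464 and 346 CPM in Csn8AKO mice. Every Csn8AKO library lay above every Ctrl library, as it did for 5.78% of the genes tested. The rise came to 0.84 ± 0.21 on the log2 scale (adjusted p = 0.0464). Leaving out any 1 library except Csn8AKO replicate 2 brought the adjusted p of Mrc1 to between 0.0535 and 0.144, so that its call needed nearly every library. With any 1 library left out, its estimate stayed between 0.71 and 0.96. The genes called in all then ran from 326 to 1477, against 1001 with every library.

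Cd163, the haemoglobin scavenger, had the smallest difference of the 10 genes. It was counted at 125, 164, 203 and 213 CPM in Ctrl mice and at 248, 109, 241 and 182 CPM in Csn8AKO mice. Both the lowest and the highest of the 8 libraries were Csn8AKO libraries. The log2 fold change was 0.15 ± 0.27 (adjusted p = 0.816), with a 95% interval from -0.44 to 0.73. Lyve1 had 42.4, 41.6, 67.3 and 79.7 CPM in Ctrl and 134, 81.6, 125 and 56.1 CPM in Csn8AKO mice, where replicate 4 fell inside the Ctrl range. Its log2 fold change was 0.78 ± 0.31 (adjusted p = 0.194). Folr2, the folate receptor, had 8.62 to 14.1 CPM in Ctrl and 9.38 to 32.4 CPM in Csn8AKO mice, and its estimate was 0.91 ± 0.38 (adjusted p = 0.215). Cd209f, the C-type lectin, had 38.6 to 61.1 CPM and 36.3 to 107 CPM (0.66 ± 0.32, adjusted p = 0.295). In all 4 of these genes the Csn8AKO group ran further up than the Ctrl group and also reached down into it.

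**Figure D1:**
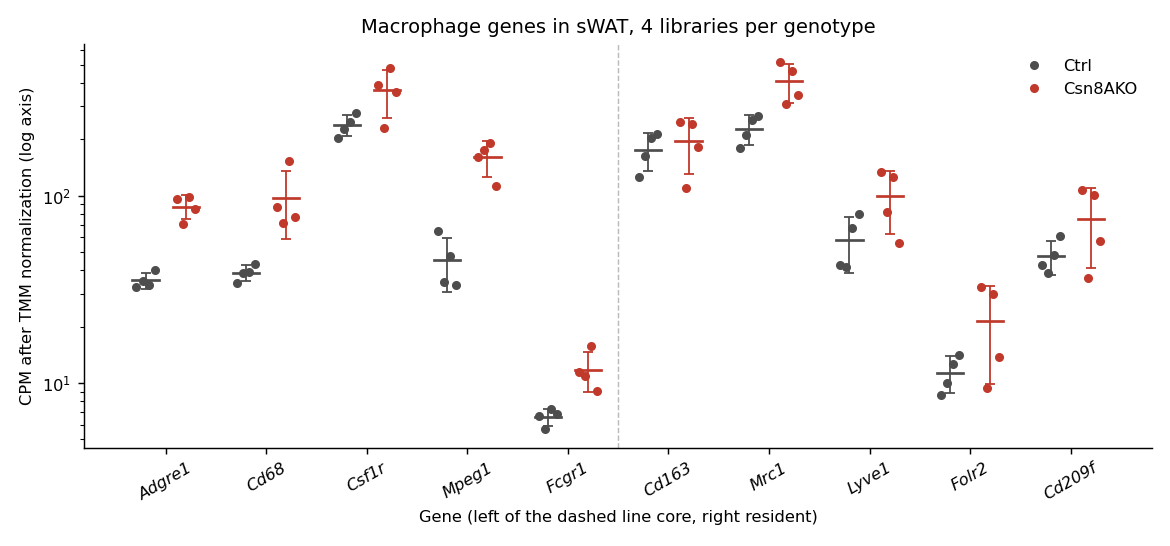
Level of each member in each sWAT library, in CPM after TMM normalization on a log axis, with the mean and SD of 4 libraries per genotype. The groups are apart for Adgre1, Cd68, Mpeg1, Fcgr1 and Mrc1, and they overlap for Csf1r, Cd163, Lyve1, Folr2 and Cd209f.

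Csn8AKO replicate 2 gave the lowest levels of its group for the resident genes Cd163, Mrc1, Folr2 and Cd209f. The same held for the core genes Adgre1, Cd68 and Csf1r. It also held the most lymphocyte RNA, and it had the lowest adipocyte sum (5537 CPM, against 11127 to 13085 CPM in the other 3) and the lowest fibroblast sum (3836 CPM, against 5645 to 7285 CPM). The part of these cells in its values was not tested. By edgeR 0 of 8 T cell genes, 0 of 7 B cell genes and 0 of the 5 lymph node genes tested (of 8) differed between genotypes. At an unadjusted p under 0.05 these were 0, 0 and 1, by DESeq2 0, 0 and 1, and by voom 0, 0 and 0. Their sums ran from 6.85 to 265, 4.39 to 202 and 10.4 to 146 CPM in Ctrl and from 11.3 to 348, 5.71 to 531 and 18.0 to 374 CPM in Csn8AKO libraries. No gene of the 3 lists was at 0 in every sWAT library. Without Csn8AKO replicate 2, Folr2 (1.17 on the log2 scale, adjusted p = 0.0453) and Cd209f (0.89, adjusted p = 0.048) also passed, which made 5 core and 3 resident genes. Without both libraries with lymphocyte RNA, 5 core genes and 1 resident gene passed, and without both Csn8AKO libraries of high ribosomal RNA share, 3 core genes and 0 resident genes did by edgeR, with Mrc1 at an adjusted p of 0.16. Without both libraries highest in muscle RNA, only Adgre1 and Mpeg1 passed, and Cd68 (1.42, adjusted p = 0.0534), Fcgr1 (0.98, adjusted p = 0.0817) and Mrc1 (0.96, adjusted p = 0.116) did not, with larger estimates than in all 8 libraries. Of the 6 muscle genes 0 differed between genotypes in sWAT by edgeR, DESeq2, voom or at an unadjusted p under 0.05.

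In BAT, at 4 weeks, all 5 core genes rose, where 16% of 22345 genes tested rose, 15.8% fell and 31.9% changed in either direction. Of these, 4 also passed a log2 fold change of 1, where 6.85% of genes did, and the exception was Fcgr1 at 0.97. For all 5, every Csn8AKO library lay above every Ctrl library, as it did for 10.1% of the genes tested. The median log2 fold change was 1.63, against 0.01 for all genes.

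Mpeg1 again changed most. It stood at 6.54, 8.43, 5.38, 8.08 and 6.34 CPM in Ctrl replicates 1 to 5 and at 62.9, 49.0, 64.6, 59.98 and 71.9 CPM in Csn8AKO mice. The 2 groups were far apart, with a fold of 8.87 and a log2 change of 3.15 ± 0.14 (adjusted p = 6.90e-09). Cd68 was counted at 6.17, 5.65, 5.21, 6.95 and 5.93 CPM in Ctrl and at 37.9, 28.8, 30.1, 35.3 and 39.8 CPM in Csn8AKO mice, a fold of 5.75 (log2 fold change 2.52 ± 0.12, adjusted p = 1.12e-08). Adgre1 rose from 5.85 ± 1.35 to 18.1 ± 2.02 CPM (SD, n = 5 each), by 1.63 ± 0.16 on the log2 scale (adjusted p = 6.28e-06). Adgre1 is often taken as the measure of macrophages in fat, and here its log2 fold change was smaller than those of Cd68 and Mpeg1.

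Csf1r, the growth factor receptor, rose from 27.6 ± 3.87 to 58.0 ± 7.12 CPM, or by 1.07 ± 0.11 on the log2 scale (adjusted p = 8.80e-06). Fcgr1 was at 0.801, 1.12, 0.758, 0.811 and 0.937 CPM in Ctrl and at 2.02, 1.30, 1.58, 2.08 and 1.64 CPM in Csn8AKO mice, on 31 to 152 reads per library. Its groups stood apart by a narrow gap, and its log2 fold change was 0.97 ± 0.20 (adjusted p = 0.00183).

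The resident genes of BAT were split. Mrc1 and Cd209f rose, and Cd163, Lyve1 and Folr2 did not pass the test. At an unadjusted p under 0.05 there were 4, where 21% of all genes were higher, and by DESeq2 and by voom 3 each, where 18.1% and 20.1% were. The median log2 fold change was 0.71. Mrc1 stood at 27.1, 22.3, 17.5, 23.4 and 19.98 CPM in Ctrl and at 53.7, 52.7, 49.7, 45.2 and 59.5 CPM in Csn8AKO mice. It was the only resident gene whose groups did not overlap, and it rose by 1.24 ± 0.11 on the log2 scale (adjusted p = 3.54e-06).

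Cd163 was counted at 19.7, 18.9, 21.5, 27.2 and 16.5 CPM in Ctrl and at 20.8, 25.8, 26.4, 20.1 and 28.2 CPM in Csn8AKO mice. The groups lay over each other, and only Csn8AKO replicate 5 exceeded every Ctrl library. Its log2 fold change was 0.22 ± 0.14 (adjusted p = 0.237), with a 95% interval from -0.07 to 0.51. That interval ends below the intervals of all 5 core genes in BAT, the lowest of which began at 0.55 for Fcgr1.

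The other 3 resident genes were scarce in BAT. Cd209f had 1.58, 0.948, 0.693, 0.793 and 1.15 CPM in Ctrl and 2.11, 1.02, 2.61, 1.67 and 1.70 CPM in Csn8AKO mice, where replicate 2 lay inside the Ctrl range. The gene rose by 0.84 ± 0.27 on the log2 scale (adjusted p = 0.0289), on 26 to 125 reads per library. Without any 1 of Ctrl replicates 2, 3 and 4 or Csn8AKO replicates 1 and 3 its adjusted p was between 0.0597 and 0.0781. Lyve1 had 2.30, 1.79, 2.27, 1.36 and 2.04 CPM in Ctrl and 4.37, 1.77, 2.27, 4.07 and 2.14 CPM in Csn8AKO mice, so that replicates 1 and 4 were high and the other 3 were at Ctrl levels. The estimate was 0.61 ± 0.26 (adjusted p = 0.0859). Folr2 had 0.486 to 0.904 CPM in Ctrl and 0.670 to 1.503 CPM in Csn8AKO mice (0.71 ± 0.28, adjusted p = 0.0672), on 17 to 82 reads per library. Without Csn8AKO replicate 2, the lowest library for all 3 genes in its group, Lyve1 (0.74, adjusted p = 0.029) and Folr2 (0.82, adjusted p = 0.0355) passed too, which made 4 resident genes. Without Ctrl replicate 1, Folr2 passed as well (0.86, adjusted p = 0.0393).

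**Figure D2:**
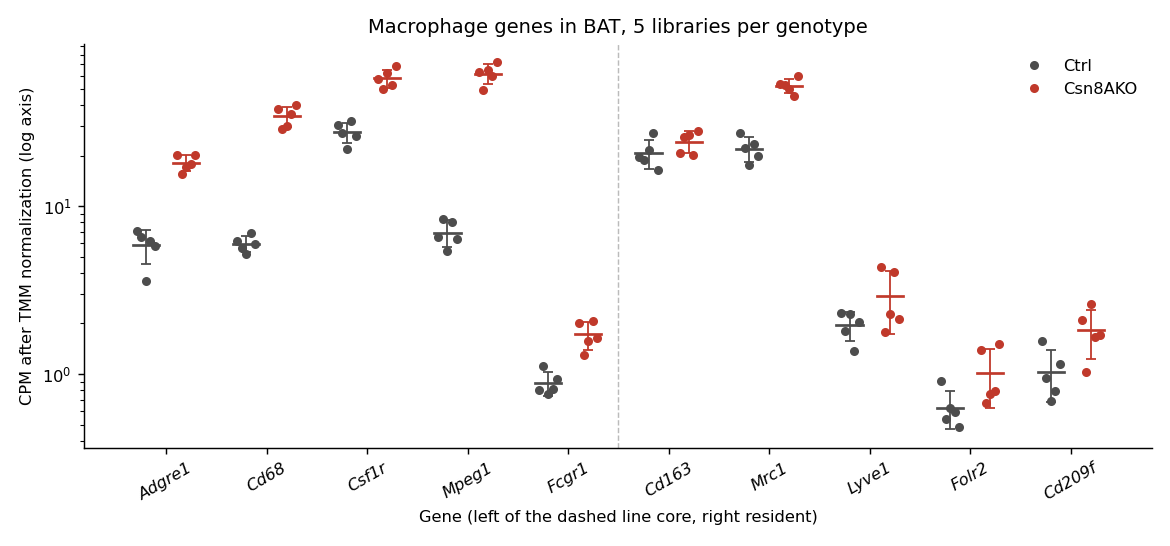
Level of each member in each BAT library, in CPM after TMM normalization on a log axis, with the mean and SD of 5 libraries per genotype. The 5 core genes and Mrc1 stand apart between genotypes, and Cd163, Lyve1, Folr2 and Cd209f overlap.

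Without both BAT libraries that held muscle RNA, all 5 core genes passed, and Mrc1 was the 1 resident gene that did. Cd209f then stood at 0.79 on the log2 scale (adjusted p = 0.103) and Folr2 at 0.25 (adjusted p = 0.574), and no other member's estimate moved as far as that of Folr2. Of the 6 muscle genes, 3 were tested in BAT. By edgeR 2 were higher in Csn8AKO mice, where 16% of all genes were, by DESeq2 2 and by voom 0. The summed level of the 6 was 1.46 to 2.11 CPM in Ctrl libraries. In Csn8AKO libraries it was 114 and 200 CPM in replicates 1 and 5 and 1.34 to 2.44 CPM in the rest. The part of muscle RNA in the Folr2 and Cd209f values was not tested.

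To set the core genes against the resident genes in 1 number per library, the mean log2(CPM + 0.5) of the 5 core genes was subtracted from that of the 5 resident genes. The 10 genes were chosen, so these values carry no test. In sWAT the value was 0.36, 0.62, 0.84 and 1.02 in Ctrl replicates 1 to 4 and 0.65, -0.25, 0.18 and 0.04 in Csn8AKO mice. Resident genes thus led core genes in all Ctrl libraries, and Csn8AKO replicate 1 still had a value inside the Ctrl range. The group means were 0.71 ± 0.28 and 0.16 ± 0.37 (SD, n = 4 each), a difference of -0.55. The core mean was 1.14 higher and the resident mean 0.59 higher in Csn8AKO mice.

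In BAT the value was -0.33, -0.70, -0.28, -0.68 and -0.58 in Ctrl mice and -1.61, -1.71, -1.66, -1.76 and -1.76 in Csn8AKO mice. The groups were separated by more than the whole spread of either. Their means were -0.51 ± 0.20 and -1.70 ± 0.07 (SD, n = 5 each), a difference of -1.19. The core mean was 1.76 higher and the resident mean 0.58 higher in Csn8AKO mice, so that the resident difference was close to that of sWAT and the core difference was larger. Among the core genes of BAT, Mpeg1 (3.15) and Cd68 (2.52) had the largest log2 fold changes. Those of Csf1r (1.07) and Fcgr1 (0.97) were below that of the resident gene Mrc1 (1.24). Leaving out each library in turn gave differences of -0.72 to -0.42 in sWAT and of -1.23 to -1.13 in BAT.

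**Figure D3:**
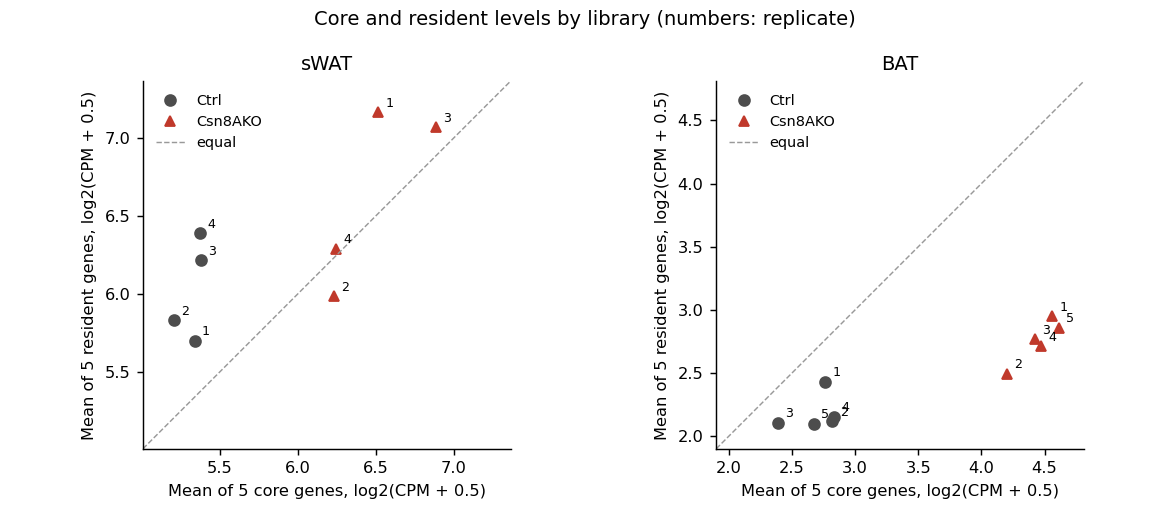
Mean log2(CPM + 0.5) of the 5 resident genes against that of the 5 core genes in each library of sWAT (left) and BAT (right), with the replicate number beside each point and a dashed line of equal levels. In BAT the Csn8AKO libraries lie 1.61 to 1.76 below the line and the Ctrl libraries 0.28 to 0.70 below it, while in sWAT all but 1 library lie above it.

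Reads of 1 gene per read of another in the same library do not depend on how libraries are scaled. For each read of Adgre1, Cd163 had 4.98 ± 0.95 reads in sWAT Ctrl (3.86 to 6.07) and 2.18 ± 0.46 in sWAT Csn8AKO mice (1.55 to 2.57). In BAT it had 3.77 ± 1.40 (2.78 to 5.98) and 1.36 ± 0.27 (1.03 to 1.67). In both tissues every Csn8AKO library had fewer reads of Cd163 per read of Adgre1 than every Ctrl library, which shows unequal change and not that either gene was constant. For Mrc1 the values were 6.45 ± 0.91 and 4.63 ± 0.54 in sWAT, without overlap, and 3.86 ± 0.59 and 2.90 ± 0.33 in BAT, where the ranges met (3.38 to 4.87 and 2.55 to 3.40). Lyve1, Folr2 and Cd209f also had lower means per read of Adgre1 in Csn8AKO mice of both tissues, such as 0.360 ± 0.160 and 0.160 ± 0.058 for Lyve1 in BAT. Ranges of the genotypes overlapped for each of them in sWAT, as for Lyve1 (1.18 to 2.01 and 0.66 to 1.39). In BAT they overlapped for Lyve1 and Cd209f but not for Folr2. Adgre1 was the only core gene used this way. The sWAT log2 fold change of Csf1r (0.61) was below those of Mrc1 (0.84), Lyve1 (0.78), Folr2 (0.91) and Cd209f (0.66) and above that of Cd163 (0.15). In BAT that of Csf1r (1.07) was below that of Mrc1 (1.24) and above those of the other resident genes.

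Whether the genotype difference in BAT differed from that in sWAT was tested as the interaction of genotype and tissue over the 18 libraries, where BAT mice were 4 and sWAT mice 12 weeks old, so that tissue and age cannot be told apart. Of the 10 genes, 2 passed, both with the larger change in BAT, where 1.61% of 22509 genes tested had a significantly larger log2 fold change in BAT, 0.755% a smaller one and 2.36% either. They were Mpeg1, with a difference in log2 fold change of 1.30 ± 0.26 (adjusted p = 0.00993), and Cd68, with 1.18 ± 0.26 (adjusted p = 0.0163). With library size alone in place of TMM factors, the difference of Mpeg1 was 1.51 and lost its call (adjusted p = 0.0671). The other core genes had differences of 0.45 for Csf1r, 0.31 for Adgre1 and 0.12 for Fcgr1, with adjusted p values of at least 0.406. The resident genes had differences between -0.23 for Folr2 and 0.38 for Mrc1, and their 95% intervals reached from -1.24 to 1.09, so that sizable differences between tissues remain possible for them.

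**Figure D4:**
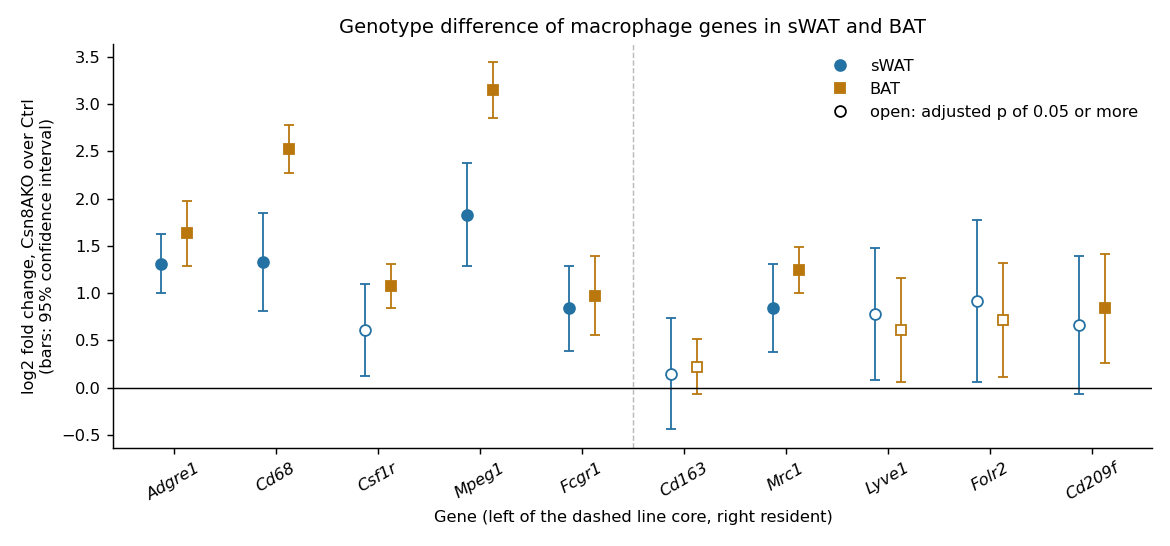
Log2 fold change of each member, Csn8AKO over Ctrl, in sWAT (circles, 4 mice per genotype) and BAT (squares, 5 mice per genotype), with 95% confidence intervals. Filled symbols passed an adjusted p of 0.05, and Cd163 lies closest to 0 in both tissues.

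Levels of different genes were compared as CPM per kilobase of gene length (FPKM). In sWAT Ctrl mice Csf1r was highest at 41.4 ± 5.35 FPKM, followed by Mrc1 (35.8), Cd163 (32.3), Cd68 (30.8), Cd209f (24.0) and Lyve1 (19.8), and each of these overlapped with the next. Adgre1 (10.9) followed, with all its values below those of Lyve1, then Mpeg1 (10.4) and Folr2 (7.34), and Fcgr1 was lowest at 2.55 ± 0.26 FPKM. Thus 4 of the 5 resident genes stood among the 6 highest. In sWAT Csn8AKO mice Cd68 came first at 77.4 ± 30.6 FPKM and Mpeg1 moved to the fifth place at 37.0 ± 7.97 FPKM, although the first 8 genes overlapped with their neighbours.

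In BAT Ctrl mice Csf1r (4.77 ± 0.67 FPKM), Cd68 (4.76), Cd163 (3.80) and Mrc1 (3.46) led and overlapped with their neighbours, and Adgre1 (1.81) and Mpeg1 (1.60) came after a gap. The other 4 were at 0.342 to 0.669 FPKM. In BAT Csn8AKO mice the order was clearer, with Cd68 at 27.4 ± 3.81 FPKM above every value of Mpeg1 (14.2 ± 1.92), followed by Csf1r (10.0), Mrc1 (8.19), Adgre1 (5.60) and Cd163 (4.44). Cd163 had therefore gone from the third to the sixth place, next to Adgre1, with which it overlapped. Lyve1, Cd209f, Fcgr1 and Folr2 were again lowest, between 0.660 and 1.00 FPKM. Lyve1, Folr2 and Cd209f had 7.34 to 24.0 FPKM in sWAT Ctrl and 0.408 to 0.669 FPKM in BAT Ctrl mice, which differ in tissue and in age.

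The members were then set beside other macrophage genes. The counts of this and the other lists stand against 2.3% of all genes higher and 3.01% lower in sWAT, and 16% and 15.8% in BAT. Of 20 further general macrophage genes, 11 rose in sWAT and 18 in BAT, and none fell. The median log2 fold changes of the 20 were 0.97 and 1.67. The smallest adjusted p values belonged to Ctss, a lysosomal protease (1.61 in sWAT, adjusted p = 0.00286, and 3.21 in BAT, adjusted p = 6.90e-09), Cd84, an adhesion receptor of leukocytes (1.66 and 2.79), and Laptm5, a lysosomal membrane protein (0.82, adjusted p = 0.177, and 2.12).

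Of 21 further genes of resident macrophages, 2 rose in sWAT, Ccl8, a chemokine (1.93, adjusted p = 0.0174), and Wfdc17 (1.64, adjusted p = 0.0262). The number rested on the tool, with 7 by DESeq2 and 8 by voom, while the general genes numbered 14 and 15. The share of all genes that rose went from 2.3% by edgeR to 5.1% and 5.72% with these tools. In BAT 12 of 20 tested rose, and Vsig4 was not tested there. The medians were 0.70 in sWAT and 0.65 in BAT, near those of the 5 resident members. In BAT the smallest adjusted p values belonged to Ltc4s, the leukotriene C4 synthase (log2 fold change 2.04), Siglec1, the sialic acid receptor of lymph node and tissue macrophages (1.25), and Stab1, a scavenger receptor (0.66). Their sWAT log2 fold changes were 1.07 (adjusted p = 0.0728), 0.67 (adjusted p = 0.085) and 0.39 (adjusted p = 0.36). The Cd209 relatives Cd209a, Cd209b, Cd209d and Cd209g had 0.59 to 0.70 in sWAT, none past the test, next to 0.66 for Cd209f. In BAT Cd209a rose (1.21, adjusted p = 0.0377), and the other 3 had 0.36 to 0.64 with no call.

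The lipid-associated macrophage genes, which macrophages switch on when they take up lipid from dying adipocytes, had the largest medians of the macrophage lists. In sWAT 10 of 13 rose and in BAT 12 of 13, with medians of 1.72 and 2.37. Atp6v0d2, a subunit of the lysosomal proton pump, rose by 4.10 and 5.97 on the log2 scale, Lgals3, which encodes galectin-3, by 1.74 and 4.43, and Mmp12, the macrophage elastase, by 3.90 and 5.86. Of 12 monocyte genes, 4 rose in sWAT and 7 of 10 tested in BAT. Among them Ccr2, the receptor that brings monocytes into tissue, had 1.22 in sWAT (adjusted p = 0.0515) and rose by 1.66 in BAT (adjusted p = 8.60e-06).

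Csf1r has 2 ligands. Il34 was the only gene of its list that fell in sWAT, by 0.87 on the log2 scale (adjusted p = 0.0292), and it had 0.37 in BAT (adjusted p = 0.0919). Csf1 had 0.26 in sWAT (adjusted p = 0.446) and rose by 0.46 in BAT (adjusted p = 0.0362). Of all 15 colony-stimulating factors, their receptors and macrophage transcription factors tested, 2 rose and 1 fell in sWAT and 9 rose and 1 fell in BAT. Spi1, the gene for PU.1, rose in both tissues, by 1.10 in sWAT (adjusted p = 0.0192) and by 1.51 in BAT (adjusted p = 0.000148). Spic, a factor of macrophages that recycle haem iron, rose by 2.85 in BAT and had 0.90 in sWAT (adjusted p = 0.64).

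Genes that work with the resident receptors were mixed. Of all genes tested, 2.3% rose and 3.01% fell in sWAT, and 16% rose and 15.8% fell in BAT. In BAT, 2 lower genes in a list of 8 or 10 were therefore not far from the share of all genes. For CD163, whose cargo is haemoglobin, 2 of 10 genes of haemoglobin scavenging and haem breakdown rose in sWAT, and 6 rose and 2 fell in BAT. Hmox1, which breaks haem down, rose by 1.38 in sWAT (adjusted p = 0.00223) and by 2.16 in BAT (adjusted p = 9.81e-05), and Slc11a1, an iron transporter of phagosomes, by 1.19 and 1.77. Hp, which encodes haptoglobin, had 0.74 in sWAT (adjusted p = 0.129) and rose by 1.02 in BAT, where Blvrb, a biliverdin reductase, fell by 0.75. For LYVE1, whose ligand is hyaluronan, 1 of 9 genes rose and 1 fell in sWAT, and 4 of 8 rose and 2 fell in BAT. Cd44, the other hyaluronan receptor of leukocytes, rose by 1.37 and 2.34, and Hyal1, a hyaluronidase, fell by 0.84 in sWAT and by 1.68 in BAT. For FOLR2, 0 of 10 genes of folate uptake and use passed in sWAT by edgeR, DESeq2 or voom (1 at an unadjusted p under 0.05), and in BAT 2 of 10 fell, near the 15.8% of all genes that fell there. These were Shmt1, by 0.57, and Slc46a1, the proton-coupled folate transporter, by 0.91. Beside Fcgr1, 4 of 6 genes of IgG receptors and their signalling rose in sWAT and 5 in BAT, among them Fcgr3 (0.95 and 1.80), Syk (0.97 and 2.06) and Fcgr2b, the inhibitory receptor (0.93 and 1.41).

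**Figure D5:**
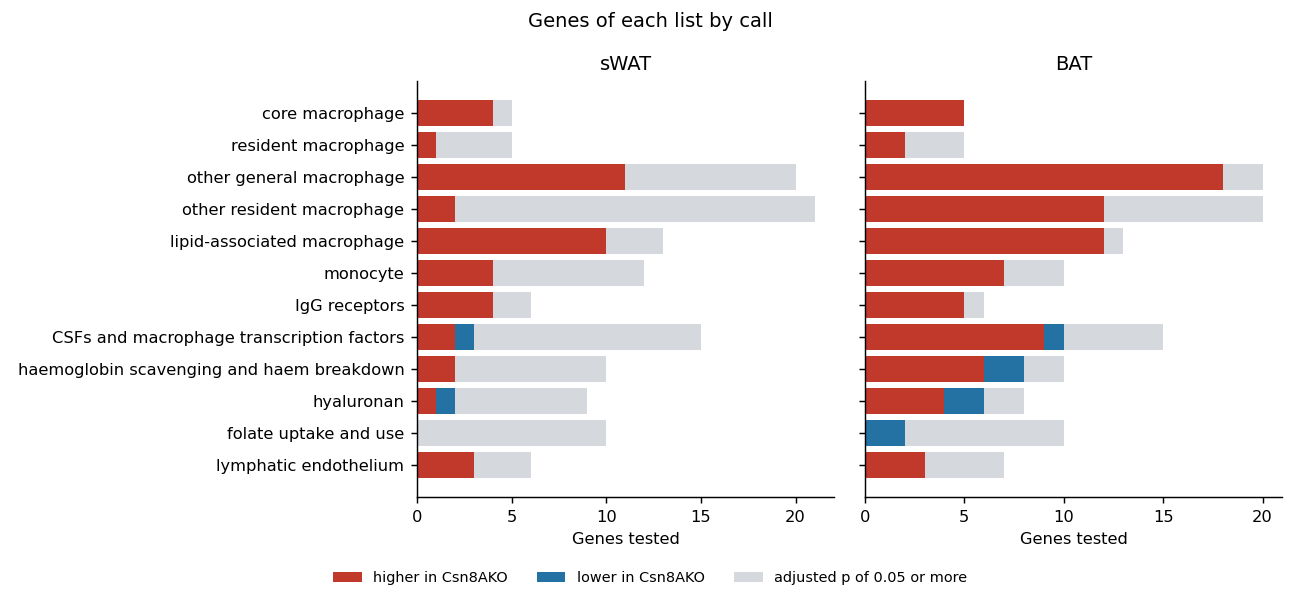
Number of tested genes of each list that were higher, lower or not past an adjusted p of 0.05 in Csn8AKO mice, in sWAT (left) and BAT (right). In sWAT 11 of 20 general, 10 of 13 lipid-associated and 2 of 21 further resident macrophage genes were higher.

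Lyve1 is shared with lymphatic endothelium. Of that cell type, 3 of 6 tested genes rose in sWAT (Pdpn by 1.15, Mmrn1 by 1.76 and Reln by 1.25) and 3 of 7 in BAT (Pdpn by 0.87, Reln by 2.05 and Itga9 by 0.89). The summed level of the 8 genes was 55.3 to 81.0 CPM in Ctrl and 94.3 to 135 CPM in Csn8AKO libraries of sWAT, and 24.0 to 37.2 CPM and 34.2 to 55.2 CPM in BAT. Prox1, the transcription factor that defines lymphatic endothelium, had 0.86 in sWAT (adjusted p = 0.562) and 0.58 in BAT (adjusted p = 0.469), and Ccl21a had no reads in any Ctrl library. Because only unique, unambiguous reads were counted, their absence does not show that Ccl21a was silent. The part of lymphatic cells in the Lyve1 values was not tested. Of the fibroblast and progenitor genes, 1 of 6 was higher in sWAT and 6 of 6 in BAT. Their sums were 3421 to 4033 CPM in Ctrl and 3836 to 7285 CPM in Csn8AKO libraries of sWAT, and 458 to 767 CPM and 1074 to 2157 CPM in BAT. Of 7 adipocyte genes, 3 were lower in sWAT, where 3.01% of all genes were, and 1 in BAT, which is near the 15.8% of all genes. The adipocyte sums were 16792 to 21772 CPM in Ctrl and 5537 to 13085 CPM in Csn8AKO libraries of sWAT, without overlap, and 8895 to 10806 CPM and 8920 to 10292 CPM in BAT, where they lay over each other. Dendritic cells share several macrophage genes. Of 7 dendritic cell genes, 0 passed in sWAT by edgeR (2 at an unadjusted p under 0.05, 0 by DESeq2 and 2 by voom) and 4 rose in BAT, where 4 of 5 mast cell genes, 3 of 8 T cell genes and 4 of 8 proliferation genes also rose. In sWAT 0 of 7 mast cell genes passed by edgeR, 4 at an unadjusted p under 0.05, 4 by DESeq2 and 3 by voom, and their sum was 60.5 to 90.8 CPM in Ctrl and 85.8 to 233 CPM in Csn8AKO libraries. Of 8 proliferation genes 0 passed there by edgeR, 5 at an unadjusted p under 0.05, 4 by DESeq2 and 5 by voom, with sums of 46.5 to 63.7 CPM and 55.9 to 116 CPM. The part of these cells in the macrophage values was not tested.

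The members also differed in which genes they varied with from mouse to mouse. After the group mean was subtracted from log2(CPM + 0.5), Pearson's r was taken over the 18 libraries against 12817 genes, as a description in which all points share the library and its depth. The mean of the core genes was most like Slc11a1 (r = 0.89), Tgfbi, Kdelr3, Epb41l3 and Capg (0.88). The mean of the resident genes was most like Dcn (r = 0.95), which encodes decorin, a proteoglycan made by fibroblasts, then Opcml, C1qa, Pf4 and Fam129a (0.93). Before the subtraction the resident mean ran from 5.98 to 7.16 in sWAT Csn8AKO and from 5.70 to 6.39 in sWAT Ctrl libraries. In BAT it ran from 2.10 to 2.43 in Ctrl and from 2.49 to 2.95 in Csn8AKO libraries. The r values of this mean therefore weigh the sWAT libraries most. Lyve1 was most like Hddc2 (0.81) and Cd209f most like Rhobtb3 (0.91) and C1qb (0.89). Between members, the median r was 0.48 over 10 core pairs, 0.66 over 10 resident pairs and 0.48 over 25 mixed pairs. The highest was 0.84 for Mrc1 with Folr2, and the lowest was -0.14 for Mpeg1 with Cd163. The core gene Csf1r was more like the mean of the resident genes (r = 0.79) than that of the other core genes (0.63). Mpeg1 had 0.33 with the mean of the other core genes and 0.05 with that of the resident genes.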

How the data were processed

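Total RNA of sWAT and BAT was depleted of ribosomal RNA and sequenced in pairs. With STAR, the authors mapped reads to GRCm38 (Ensembl), and featureCounts gave them the number of unique, unambiguous reads of each gene. The deposited counts, not normalized, were the values used. The deposited CPM, FPKM and TPM, which the authors made by scaling for library total and gene length, were recomputed from the counts as a check and not used further. Of 55487 genes, 54870 lay at identical positions in GENCODE M21, from which gene types came. Symbols were matched by gene ID from a separate list, which held 55141 of the genes.

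Genotypes were compared within each tissue with edgeR 4.0.16 (R 4.3.3), using TMM factors, filterByExpr (minimum count 10, minimum total 15), a robust quasi-likelihood fit, and p-values adjusted by Benjamini-Hochberg over all genes tested. The filter kept 18843 genes in sWAT and 22345 in BAT, and every member exceeded its cutoff in every library (0.560 CPM in sWAT, 0.188 CPM in BAT). A call needed an adjusted p under 0.05. The interaction used all 18 libraries. CPM and FPKM printed here include the TMM factors, and log2 levels add 0.5 CPM. DESeq2 1.42.0, limma 3.58.1 and other settings were alternatives. The scripts were tested on simulated counts.

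The members and the gene lists were chosen with earlier results of these data known. The text names all 10 members, and from each other list up to 3 genes of smallest adjusted p in either tissue. Beyond that rule, and after their values were seen, it names genes behind counts of 5 or fewer, the Cd209 relatives, Ccr2, Csf1, Hmox1 and markers of other cell types. Promoters came from RefSeq (GRCm38.p6). They were at hand for 7 members, and those of Adgre1, Csf1r and Lyve1 were not used here. No 2 libraries agreed within counting noise. Each library is 1 mouse per the labels and methods, and p-values measure the spread between mice.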

Additional observations from a re-analysis of the deposited data

Results flagged for a closer look

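Of the 10 genes, 2 differed between the tissues by the test of the difference itself, the interaction of genotype and tissue. The log2 fold change in BAT minus that in sWAT was 1.30 for Mpeg1 (adjusted p = 0.00993, edgeR) and 1.18 for Cd68 (adjusted p = 0.0163). With library size alone that of Mpeg1 was 1.51 and did not pass (adjusted p = 0.0671). Both genes were higher in Csn8AKO mice in 4 of 4 sWAT and 5 of 5 BAT libraries than in any Ctrl library. BAT was taken at 4 weeks and sWAT at 12 weeks, so the tissue and the age cannot be told apart. Dixon's criterion flagged no library in 44 tests, of the 10 members and of the resident minus core value in each group, where chance gives about 1 in 20. With 4 or 5 libraries in a group it can flag only extreme values. Cd68 in sWAT Csn8AKO replicate 3 (154 CPM, against 71.4 to 86.8 CPM in the rest of its group) was not flagged.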

How the results depend on the processing

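In BAT all 5 core genes and the resident gene Mrc1 kept their call under every alternative, as did Adgre1 and Mpeg1 in sWAT, and Cd68 there under all but 1. With TMM, 434 genes were higher and 567 lower in sWAT, 3584 and 3535 in BAT, and 362 and 170 in the interaction. With library size alone the numbers were 106 and 328, 4181 and 2089, and 494 and 39, and the median log2 fold change of all genes shifted from 0.01 to 0.14 in BAT and from -0.0042 to 0.21 in the interaction. The 1001 genes called in sWAT became 434 with library size alone, 1946 with DESeq2, 2155 with voom and quality weights, 2462 with all 4 groups in one fit, 2269 with a T and B cell covariate, 1820 without the 2 libraries high in lymphocyte genes 382 without the 2 high in ribosomal RNA and 385 without the 2 high in muscle genes. In the interaction, 532 genes became 1092 with DESeq2 and 903 with voom. The number of resident genes called in sWAT, 1, became 0 with RLE factors (Mrc1, adjusted p = 0.0501), with library size alone (0.32), without the 2 libraries high in ribosomal RNA (0.16) and without the 2 high in muscle genes (0.116). The latter also left 2 core genes in place of 4, with Cd68 at an adjusted p of 0.0534 and Fcgr1 at 0.0817. In BAT 2 became 1 with all 4 groups in one fit (Cd209f, adjusted p = 0.0744) and without the 2 libraries high in muscle genes (0.103). Fcgr1 in sWAT lost its call with library size alone (adjusted p = 0.557), with no filter (0.0576) and without the 2 libraries high in ribosomal RNA (0.116). Csf1r in sWAT gained one with voom (0.0184), all 4 groups (0.0374), the covariate (0.0238) and without the 2 libraries high in lymphocyte genes (0.0225). In BAT Folr2 gained a call with library size alone (0.0428) and DESeq2 (0.046), and Lyve1 with voom (0.0196). The Mpeg1 interaction, 1.51 with library size alone, lost its call there (adjusted p = 0.0671). Interactions near 0 turned sign: Lyve1 to 0.033 and Folr2 to 0.047 with library size alone, and Cd163 to -0.044 and Lyve1 to 0.11 with voom. The cause was not tested for any of these. The 4 settings that leave out 2 libraries were chosen after seeing the data.

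Leaving out 1 library at a time gave 326 to 1477 genes called in sWAT, 5723 to 8146 in BAT and 355 to 720 in the interaction. The core genes called were 3 to 5 in sWAT and 5 in BAT, and the resident genes 0 to 3 and 1 to 4. Interactions ran from -0.15 to 0.21 for Cd163, -0.38 to 0.026 for Lyve1, -0.47 to 0.065 for Folr2 and -0.071 to 0.40 for Cd209f, and those of Cd68 (1.05 to 1.498) and Mpeg1 (1.10 to 1.42) kept their calls. The resident minus core difference stayed between -0.59 and -0.47 in sWAT and between -1.20 and -1.15 in BAT under the other scalings, pseudocounts, resident gene sets and samples tried. The set of core genes was the same in all of these, so its part in the difference was not tested.

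Samples of the same replicate number did not deviate together (r from -0.42 to 0.24 in sWAT and -0.13 to 0.14 in BAT). No pairing by number was seen, although so few pairs cannot exclude it. The highest r of sWAT, 0.69, joined Ctrl replicate 1 and Csn8AKO replicate 2, which both held lymphocyte RNA. With the replicate block, 299 genes were called in sWAT, 0 of them resident members, and 297 in the interaction, and Fcgr1 (adjusted p = 0.116) and Mrc1 (0.143) lost their calls in sWAT. Depth limits Folr2, Cd209f and Fcgr1 in BAT, with as few as 17, 26 and 31 reads in a library.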
